A study of Mus musculus with 8 samples.

Results

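The odorant receptor genes numbered Olfr763 to Olfr827 form a tandem array near the distal end of mouse chromosome 10, the chromosome that also carries the trace amine-associated receptor (Taar) cluster. The members were the rows of the deposited table whose symbol is Olfr and a number, from Olfr763 through Olfr827, without the pseudogene suffix, which gave 59 of 54982 rows and 59 of 1113 such Olfr genes in all. RNA sequencing had been run on olfactory mucosa, the nasal tissue in which odour-sensing neurons sit, from 129S6;C57BL/6J mice labelled male at postnatal day 30. There were 4 control libraries and 4 libraries with the TE1 and TE2 deletion, and the labels do not say whether each library is a separate animal, so p-values measure the spread between these libraries. TE1 and TE2 are candidate enhancers of the Taar genes. The positions of the deletions, and whether the deletion was on both chromosomes, are not stated in the labels. The comparison asks how the receptors of a second array on that chromosome stand when these elements are removed.

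Odorant receptors are G protein-coupled receptors of the cilia of olfactory sensory neurons. Each mature neuron settles on a single receptor gene, and usually on a single allele of it, out of the whole family. The chosen receptor signals through the olfactory G protein and adenylyl cyclase to a cation channel, and it also guides the neuron's axon to its target in the olfactory bulb. Receptor genes lie in arrays made by repeated local duplication, each gene is typically read from a coding sequence in a single exon behind noncoding leader exons, and enhancers within and between arrays take part in the choice. In a bulk sample the level of a receptor therefore reflects how many neurons use it and how much RNA each neuron makes, and fewer neurons and less RNA per neuron cannot be told apart.

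All 59 genes lay on chromosome 10 in GRCm38, from 129010791 (the start of Olfr763, plus strand) to 130214403 (the end of Olfr827, minus strand), a span of 1.20 Mb. The array began 104.9 Mb beyond the end of Taar9, the last gene of the Taar cluster. The largest gap between neighbouring members was 48.8 kb and the median gap 9.81 kb. The smallest was the 108 bases between the ends of Olfr776 and Olfr777, which are read towards each other. There were 27 members on the plus and 32 on the minus strand, in 16 runs of a single strand. The annotation gave 56 of them a transcript with more than 1 exon. The single-exon models were those of Olfr763, Olfr773 and Olfr779. Olfr779 is annotated as a polymorphic pseudogene, and the genes listed as Olfr764 and Olfr766 carry the names Olfr764-ps1 and Olfr766-ps1 in GENCODE M21, which types them as protein-coding. Coding lengths ran from 924 to 984 bases, with a median of 936.

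The coding sequences show how closely this array is related to itself. For 56 of the 59 members the most alike Olfr coding sequence anywhere in the genome belonged to another member, at a median identity of 93.7% over all 59. The exceptions were Olfr763 and Olfr796, both closest to Olfr9, which sits just before the array, and Olfr819, closest to Olfr247, which sits inside it but outside the number range. These stretches of 60 coding bases of GENCODE M21 transcripts (GRCm38) hold the most differences within 4 highly alike pairs. They are shown because a read from the coding sequence can be assigned to a single gene of a pair only where such bases differ. Most exon models also hold noncoding sequence, with 2965 exon bases against 933 coding bases for Olfr772. The noncoding sequence was not compared within pairs. The stretches start at coding base 464 in Olfr772 and Olfr773, 569 in Olfr819 and Olfr247, 808 in Olfr764, 805 in Olfr766 and 203 in Olfr823 and Olfr824. Capitals mark the bases that differ within a pair.
Olfr772: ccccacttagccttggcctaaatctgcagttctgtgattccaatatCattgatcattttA
Olfr773: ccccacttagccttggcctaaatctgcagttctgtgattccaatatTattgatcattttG
Olfr819: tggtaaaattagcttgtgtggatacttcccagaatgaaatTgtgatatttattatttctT
Olfr247: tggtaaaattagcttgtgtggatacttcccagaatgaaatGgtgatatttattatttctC
Olfr764: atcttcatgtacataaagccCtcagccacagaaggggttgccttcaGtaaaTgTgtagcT
Olfr766: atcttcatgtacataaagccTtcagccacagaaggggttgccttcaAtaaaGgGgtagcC
Olfr823: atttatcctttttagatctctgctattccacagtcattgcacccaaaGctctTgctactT
Olfr824: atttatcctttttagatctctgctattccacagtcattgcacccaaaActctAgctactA

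Olfr772 and Olfr773 differed at 7 positions of 933, Olfr819 and Olfr247 at 7 of 960, and Olfr823 and Olfr824 at 11 of 945. In Olfr772 and Olfr773, 79.1% of all 50-base windows of the coding sequence occurred in a transcript of another gene. The share of such windows was above 50% in 12 members and 0 in another 12. Those without any shared window were Olfr768, Olfr771, Olfr788, Olfr789, Olfr790, Olfr791, Olfr794, Olfr796, Olfr807, Olfr808, Olfr820 and Olfr821. Neither the labels nor the table state the read length or the treatment of reads that map to several places, so values of the more alike members are uncertain.

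Values below are scaled reads, the deposited gene read counts divided by each library's size factor. The libraries held 31655524 to 50748777 reads assigned to genes, of which 11748 to 17083 fell on the array. The mature olfactory neuron markers, among them Omp, Gnal, Adcy3 and Cnga2, had 10 of 10 genes with reads and together took 11111 to 12814 CPM (reads scaled to a common library total of gene reads) in controls and 12124 to 13206 in deletion libraries. The library labelled deletion replicate 3 went against its label of male, with 15300 scaled reads of Xist, the X-inactivation RNA, and 5.69 of the Y-linked Ddx3y, against at most 86.9 and at least 2716 in the other libraries. The 14 olfactory Taar genes together were at 70.5 to 92.9 CPM in controls and 0.303 to 1.90 CPM in deletion libraries, so the groups were fully apart. Other tissue markers also differed between the groups: 5 respiratory epithelium markers together took 4202 to 7487 CPM in controls and 7744 to 8354 in deletion libraries, and 6 markers of sustentacular cells, the supporting cells of the epithelium, 5558 to 6875 and 6971 to 7322, in both cases without overlap. In the other 10 marker lists, the mature neuron list among them, the groups overlapped. No gene of any marker list was called, and the part of tissue makeup in the results was not tested.

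Nearly the whole array was transcribed. Between 57 and 59 members had at least 1 read in each library, and 57 had enough reads to test. Among the tested members the level per kb of exon ran over a 14.2-fold range, with a median of 66.1 scaled reads per kb over the 8 libraries, and quartiles of 33.9 and 96.7. The other 981 tested odorant receptors had a median of 56.2 and reached 1735, so the array held no receptor near the highest levels of the family. The 6 members with the most scaled reads took 27.9% of the array's reads.

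**Figure D1:**
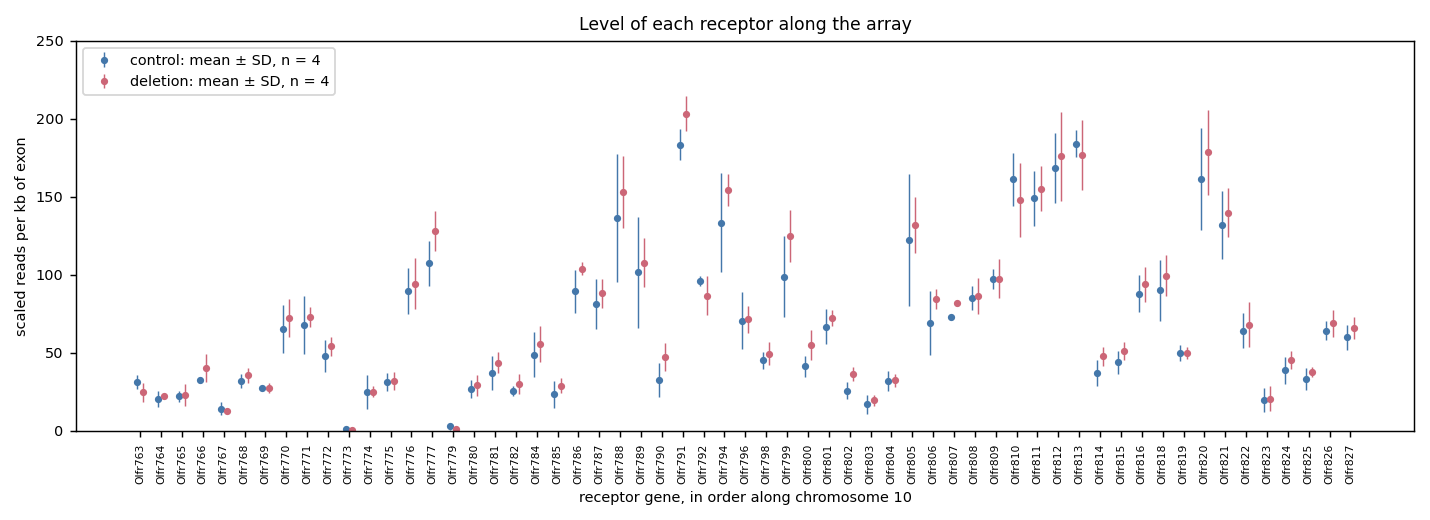
Level of the 59 receptors in order along the chromosome (x axis), in scaled reads per kb of exon (y axis), as the mean and SD of 4 control and 4 deletion libraries. Over the whole array the mean of 8 libraries runs from 193 scaled reads per kb for Olfr791 to 0.968 for Olfr773, and the control and deletion points lie close together.

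Olfr791 (129521792 to 129528353, plus strand) had the highest mean level per kb over the 8 libraries, at 183 ± 10.002 scaled reads per kb in the controls and 203 ± 11.2 with the deletion (SD, n = 4). Its scaled reads were 488, 471, 444 and 433 in the 4 controls, in replicate order, and 485, 497, 549 and 502 in the 4 deletion libraries. The groups overlapped, with deletion replicate 1 below control replicate 1. Next by level per kb came Olfr813, Olfr812 and Olfr820, and then Olfr810 and Olfr811. Olfr813 (129855367 to 129858722, plus strand) was at 184 ± 8.66 scaled reads per kb in controls, level with Olfr791 there, and 177 ± 22.5 in deletion libraries. Olfr812 (129841418 to 129846094, minus strand) was at 169 ± 22.4 and 176 ± 28.3, and Olfr820 (130012621 to 130021286, plus strand) at 161 ± 32.5 and 178 ± 27.4. The ranges of these members over the libraries overlapped. Their order within each library was not tested. Olfr810, Olfr811, Olfr812 and Olfr813 are consecutive genes, so 4 of the 6 highest levels per kb stood side by side. That order depends on the annotated exon lengths. In scaled reads over the 8 libraries Olfr810 was at 743, but Olfr813, Olfr811 and Olfr812 were at 435, 387 and 320. Olfr820, Olfr788, Olfr777, Olfr827 and Olfr791 were at 799, 686, 637, 534 and 484. Of the consecutive genes, only Olfr810 was thus among the 6 highest in scaled reads.

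At the other end, Olfr773 (129186484 to 129187419, minus strand) had 5 reads over the 4 controls and 2 over the deletion libraries, and Olfr779 (129311180 to 129312108, plus strand) had 10 and 5. Both were too low to test. Olfr773 was at 0 in control replicate 4 and in deletion replicates 1 and 3, and Olfr779 in control replicate 1 and deletion replicate 3. The lowest tested member per kb was Olfr767 (129074825 to 129082910, minus strand), at 14.2 ± 4.10 scaled reads per kb in controls and 13.0 ± 1.55 in deletion libraries.

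Some members with nearly the same coding sequence stood at different levels. There were 17 pairs of members that were each other's closest Olfr coding sequence at over 90% identity, and 6 of these were direct neighbours. Olfr772 was at 51.0 and its 99.2% identical neighbour Olfr773 at 0.968 scaled reads per kb over the 8 libraries, a ratio of 52.7. Olfr782 and Olfr779, at 97.2% identity, were at 27.95 and 2.14. In both pairs the lower gene has a model of 1 exon that holds almost only coding sequence, 936 bases for Olfr773 and 929 for Olfr779, while the models of Olfr772 and Olfr782 hold 2965 and 1944 bases. The part of these models in the ratios was not tested. In the other 15 pairs the ratio, always of the higher to the lower gene, lay between 1.122 (Olfr815 to Olfr814) and 3.38 (Olfr787 to Olfr774). It is thus above 1 in every pair by construction, and less alike members were not compared. Olfr815 and Olfr814 had overlapping ranges over the libraries, and their order within each library was not tested. They were at 43.9 ± 7.57 and 37.0 ± 8.20 scaled reads per kb in controls, and at 51.1 ± 5.61 and 47.7 ± 5.94 in deletion libraries. The ratios per kb depend on the annotated exon lengths. In scaled reads, Olfr815 was below Olfr814 (137 against 162) and Olfr765 below Olfr767 (58.4 against 74.8), the reverse of the order per kb, and Olfr787 was at 420 against 35.8 for Olfr774. Per kb, Olfr824 was at 42.3 against 20.2 for Olfr823, but in scaled reads at 163 against 29.0. Per kb, Olfr766 was at 36.5 against 21.2 for Olfr764. Olfr777 was at 118 scaled reads per kb against 48.3 for Olfr800, which lies 18 genes away on the opposite strand. Olfr247, the closest relative of Olfr819, was listed at 0 in all 8 libraries, while Olfr819 was at 197 ± 20.2 scaled reads in the control group and 196 ± 14.6 in deletion libraries. Olfr247 is no member and was named after its values were seen. How many reads of such pairs were lost or moved between them was not tested.

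**Figure D2:**
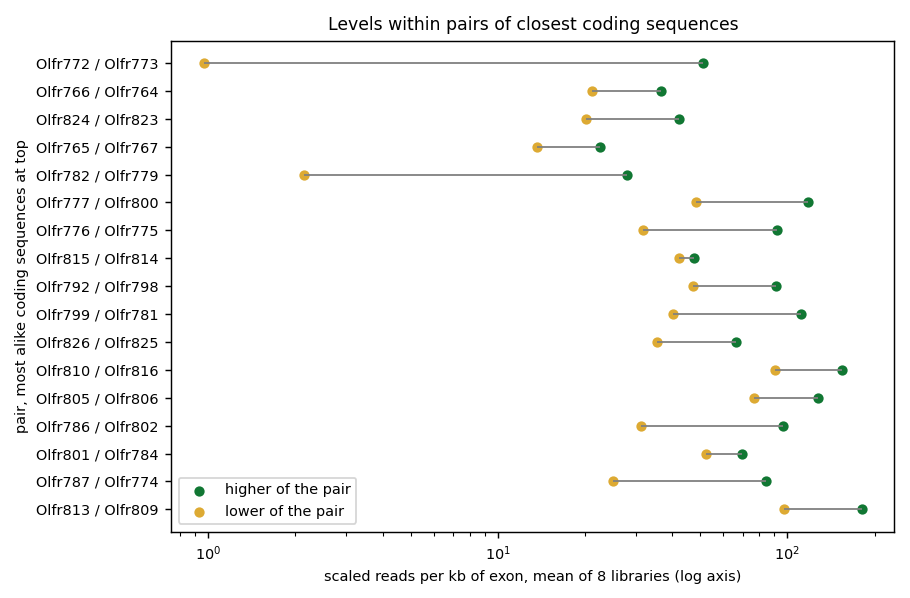
Level of both genes in the 17 pairs of closest coding sequences with over 90% identity, as the mean of 8 libraries in scaled reads per kb of exon on a log axis (x), with the most alike pair at the top (y). The gap is widest for Olfr772 with Olfr773 (51.0 against 0.968) and Olfr782 with Olfr779 (27.95 against 2.14).

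No receptor of the array was called between deletion and control. At a Benjamini-Hochberg adjusted p under 0.05 (limma), 0 of the 57 tested members were called, beside 0.0728% of the 21974 genes tested (16 genes; 0.0137% higher and 0.0592% lower in deletion libraries) and 1 of the 981 other tested odorant receptors. The smallest adjusted p among members was 0.869 (limma). edgeR and DESeq2 also called 0 members, and leaving out any single library left the count at 0. No member had a fitted difference past 1.5-fold in either direction. For 35 of the 57 members the unadjusted 95% interval of the difference lay wholly within 1.5-fold, and for 56 within 2-fold, all but Olfr790. The interval reached below a 1.5-fold loss for 3 members, the weakly expressed Olfr763, Olfr774 and Olfr823, and above a 1.5-fold gain for 21. The 12 olfactory Taar genes tested in the same fit had a median log2 fold change of -5.94.

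By an unadjusted limma p under 0.05, 4 members passed, all higher in deletion libraries, and 0 lower. Over all tested genes 1.58% were higher and 1.92% lower at that limit (3.5% in all), and over the other odorant receptors 3.87% and 1.73%. The count of 4 members depended on the libraries and the tool. The shares over all tested genes are those of the main fit and are not given for the alternatives. It was 1 without control replicate 1 or deletion replicate 1, 2 without control replicate 2, 2 without deletion replicate 4 (1 higher and 1 lower, Olfr763), 6 without control replicate 3, 2 with edgeR and 4 with DESeq2. Over the alternatives, the adjusted p of these 4 members ran from 0.446 (limma, without control replicate 1) to 1.00 (limma, scaled to other odorant receptor reads).

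The member with the smallest p was Olfr802 (129677683 to 129688169, minus strand). Its scaled reads were 139, 128, 188 and 119 in the 4 controls, in replicate order, and 166, 208, 211 and 223 in the 4 deletion libraries. Control replicate 3 lay above deletion replicate 1, so the groups overlapped. The log2 fold change, deletion minus control on the log2(scaled reads + 1) scale, was 0.50 ± 0.17 (SE; limma adjusted p = 0.869). Olfr790 (129498492 to 129503342, plus strand) had the largest fitted difference, 0.57 ± 0.23. It was at 73.7, 71.2, 138 and 90.5 scaled reads in the controls and 144, 110, 122 and 167 in the deletion libraries, where only control replicate 3 reached the deletion range.

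Olfr800 (129657694 to 129662074, plus strand) was at 159 ± 25.5 scaled reads in the control group and 211 ± 36.8 in deletion libraries, a log2 fold change of 0.41 ± 0.17, with control replicate 3 above deletion replicate 3. Olfr777 (129264407 to 129271485, minus strand) was at 601, 470, 600 and 651 scaled reads in the control group and 797, 653, 663 and 662 in deletion libraries, 0.26 ± 0.12 on the log2 scale (limma adjusted p = 0.869) and 0.16 without control replicate 2. Its groups did not overlap, but control replicate 4 and deletion replicate 2 were nearly level. Olfr777 and Olfr800 are each other's closest coding sequence at 96.8% identity. Olfr814 came next, at 0.38 ± 0.18. The only other member without overlap, Olfr807, was named after its values were seen and had the narrowest groups of these, with 139 ± 3.23 scaled reads in the control group and 157 ± 3.53 in deletion libraries (limma adjusted p = 0.869). Groups that did not overlap with deletion above were thus found in 2 of 57 members, or 3.51%. The shares were 1.83% of the other odorant receptors and 0.983% of all tested genes. With deletion below there were 0 members, against 0.306% of the other odorant receptors and 1.22% of all tested genes.

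On the lower side the smallest p belonged to the first member by position. Olfr763 (129010791 to 129013313) was at 80.2, 69.3, 70.8 and 95.4 scaled reads in the control group and 48.7, 59.5, 56.9 and 84.9 in deletion libraries, a log2 fold change of -0.35 ± 0.21 (limma adjusted p = 0.869). Deletion replicate 4 lay within the control range. Olfr792 was at -0.16 ± 0.13, Olfr810 at -0.13 ± 0.12, Olfr813 at -0.06 ± 0.11 and Olfr767 at -0.09 ± 0.22, each less than 2 SE from 0. Olfr827, the last member by position (130203049 to 130214403), was at 509 ± 68.1 scaled reads in the control group and 559 ± 61.9 in deletion libraries, 0.14 ± 0.12 on the log2 scale.

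**Figure D3:**
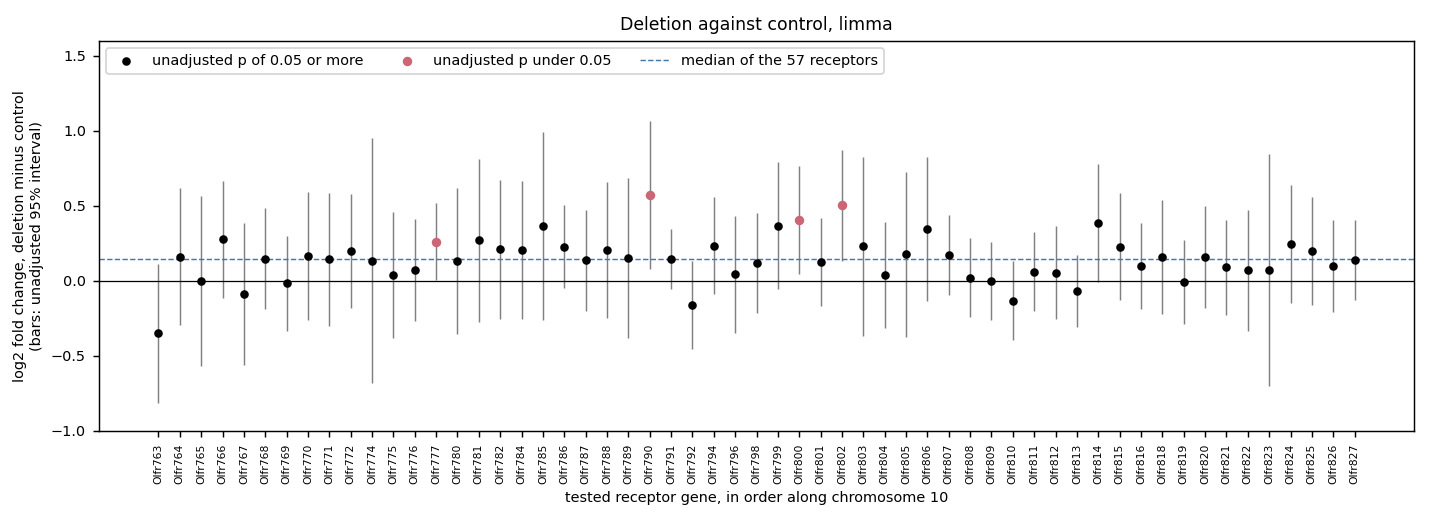
Log2 fold change, deletion minus control, of the 57 tested receptors (y axis, with unadjusted 95% intervals from limma) in order along the chromosome (x axis). All but 9 points lie above 0, the dashed line marks their median of 0.15, and the 4 coloured points (Olfr777, Olfr790, Olfr800 and Olfr802) have an unadjusted p under 0.05.

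Small differences on the higher side were common across the array. The fitted log2 fold change was above 0 for 48 of 57 members, against 54.4% of all tested genes and 61.7% of the other odorant receptors. The members share the same 8 libraries and are not independent of each other. The median was 0.15 over the members, 0.07 over the other odorant receptors and 0.02 over all tested genes. The members' median log2 value varied between libraries of a group by an SD of 0.12, about as much as the difference itself. The members' median fold change stayed above 0 under every scaling and every left-out library tried, but was 0.08 without control replicate 2, 0.09 without deletion replicate 4, 0.09 when scaled to the reads of the other odorant receptors and 0.05 when scaled to mature neuron marker reads. Without the library labelled deletion replicate 3, which went against its label, the median was 0.17, no member was called, and by unadjusted limma p 4 members stood under 0.05, 3 higher and 1 lower. Among the 12 members whose coding sequence shares no 50-base window with another gene, all 12 were above 0, with a median of 0.15 and a range of 0.02 to 0.57, and 1 of them had an unadjusted p under 0.05.

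Summed over the 59 members, the array took 329, 313, 371 and 326 CPM in the 4 controls, in replicate order, and 354, 343, 342 and 391 CPM in the 4 deletion libraries. Control replicate 3 lay above 3 of the 4 deletion libraries, so the groups overlapped. The means were 335 ± 25.1 and 357 ± 23.2 CPM (SD, n = 4), a difference of 6.73% that was smaller than the SD of either group. It was 3.35% to 10.7% with 1 library left out (8.29% without the library labelled deletion replicate 3) and 2.07% relative to mature neuron marker reads. As a share of all odorant receptor reads, the array took 4.56%, 4.99%, 4.76% and 4.95% in the controls and 4.96%, 4.81%, 5.15% and 5.25% in the deletion libraries. The means were 4.815 ± 0.197% and 5.04 ± 0.195%, a difference of 0.226 points that was larger than the SD of either group, but deletion replicates 1 and 2 lay within the control range. It was 0.141 points without control replicate 1 and 0.304 without deletion replicate 2, the lowest and highest with 1 library left out. No p is given for these sums, since the members were chosen with earlier results of these data known.

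**Figure D4:**
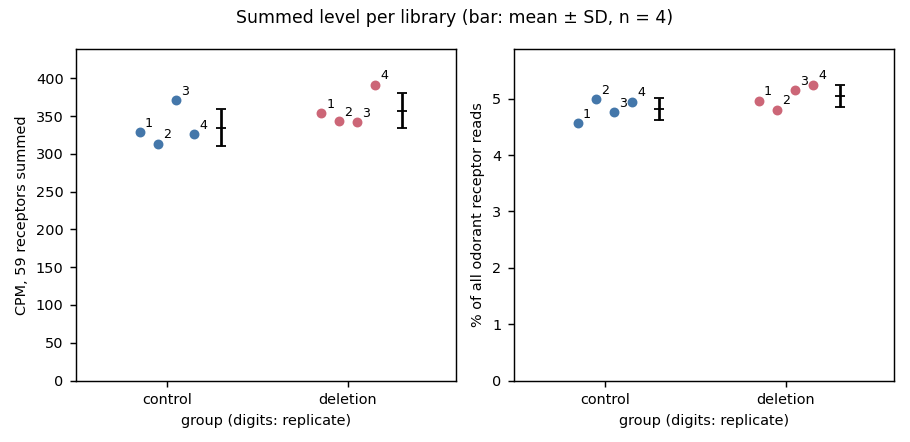
Summed level of the 59 receptors in each library (points, numbered by replicate) with the mean and SD of each group (bars, n = 4), in CPM on the left and as a percentage of all odorant receptor reads on the right. Controls span 313 to 371 CPM and deletion libraries 342 to 391 CPM, with overlap in both panels.

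Values also differed between libraries of the same group. Among the tested members the highest library exceeded the lowest by a median of 1.70-fold. Of the 57, 23 had their lowest value in control replicate 2, and 19 had their highest in deletion replicate 4 and 15 in control replicate 3. The widest spread among members averaging at least 50 scaled reads was found in Olfr785, Olfr789, Olfr805 and Olfr806, and control replicate 2 was the lowest library of each. Olfr805 was at 500, 219, 525 and 378 scaled reads in the control group and 409, 379, 445 and 517 in deletion libraries. Its neighbour Olfr806, at 94.1% identity, was at 301, 143, 305 and 282 in controls and 332, 290, 298 and 340 in deletion libraries. Olfr789 was at 521, 258, 623 and 396, and at 520, 416, 421 and 553. Without control replicate 2 the fitted difference of Olfr789 and of Olfr805 turned from 0.15 and 0.18 to -0.09 each.

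Control replicate 2 was not the lowest library for any member of a stretch of the array. In the 9 consecutive members from Olfr808 to Olfr816, a stretch chosen after the values were seen, control replicate 2 stood a median of 0.22 above the mean of the other 3 controls on the log2 scale, and it was the lowest library for 0 of them. In the other 48 tested members it stood a median of -0.27 from them and was lowest for 23, and over the other 981 odorant receptors the median was also -0.27. Control replicate 2 stood below the mean of the other controls in 38 of the 48 and in 1 of the 9. Its highest value was 0.58 above that mean outside the stretch and 0.46 above it within the stretch. Since the stretch was chosen on these values, the contrast is a description only. Olfr810 in that stretch (129787289 to 129794917, minus strand) was at 820, 864, 737 and 681 scaled reads in the control group and 648, 624, 876 and 698 in deletion libraries, so that control replicate 2 and deletion replicate 3 were its highest libraries. Olfr811 and Olfr812 were also highest in these libraries, but the stretch did not share this pattern. Olfr813 was lowest in deletion replicate 3, at 377 scaled reads. Olfr814 was highest in deletion replicate 2, at 214, and Olfr816 in deletion replicate 1, at 376. Nqo1, an enzyme of dorsal olfactory neurons, was highest in control replicate 2 and deletion replicate 3. It was at 18195 and 21284 scaled reads there, against 12332 to 17017 in the other 6. Acsm4, a gene of the dorsal epithelium, was at 28836 and 35729 there and 18119 to 27566 in the others. Ncam2, a cell adhesion gene of ventral neurons, was lowest in control replicate 2, at 4400 against 5026 to 5562. The mature neuron markers were also lowest in control replicate 2, at 11111 CPM. The part of these genes in the differences between libraries was not tested.

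**Figure D5:**
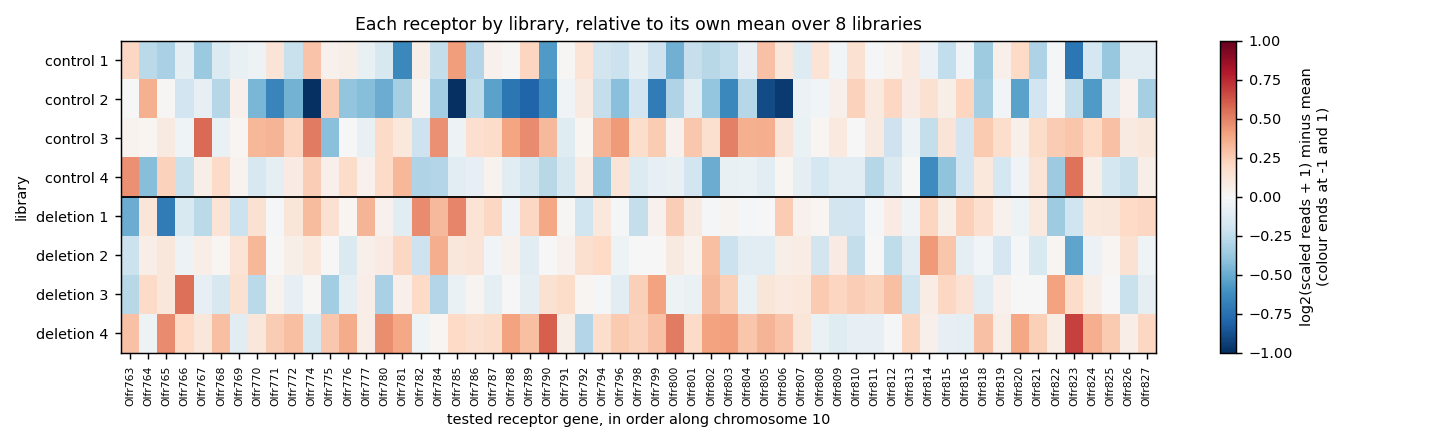
Deviation of each of the 57 tested receptors in each library (rows) from its own mean over the 8 libraries, in log2(scaled reads + 1), in order along the chromosome (columns). Control replicate 2 is below the mean, in blue, for most receptors outside the stretch from Olfr808 to Olfr816, and its deepest values fall on Olfr774, Olfr785, Olfr805 and Olfr806.

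Likeness of pattern was described for Olfr791, the member with the highest mean level per kb, and Olfr802, the member with the smallest p. Over the 8 libraries, the 3 odorant receptors most like Olfr802 in log2(scaled reads + 1) were Olfr954 on chromosome 9, Olfr1425 on chromosome 19 and Olfr114 on chromosome 17, and those most like Olfr791 were Olfr192, Olfr1495 and Olfr1032. None of these 6 is a member. They are the top of 1037 receptors compared over the same 8 libraries and are given as a description.

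Genes around the array were not called either. Of 18 genes other than odorant receptors or their pseudogenes within the array or 100 kb of it, 5 had enough reads to test. All 5 lay outside the array, and the genes between the receptors had too few reads to test. Of the 5 tested genes 0 were called, and by an unadjusted limma p under 0.05 there were also 0. The shares over all tested genes were 0.0728% and 3.5%. On the side of Olfr763, Cd63, a tetraspanin of endosomes, was at 1776 ± 330 scaled reads in the control group and 2034 ± 224 with the deletion (SD, n = 4). Rdh5, a retinol dehydrogenase, was at 121 ± 25.1 and 104 ± 14.3, and Bloc1s1, a subunit of a lysosome biogenesis complex, at 126 ± 37.7 and 108 ± 22.02. Olfr9, the receptor just before the array, was at 110 ± 17.7 and 114 ± 3.06.

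The genes that receptors work with in the neuron also stayed short of the threshold. Of 38 listed genes of transduction, receptor export and receptor choice, 38 were tested and 0 were called, with 1 at an unadjusted p under 0.05 (limma). That gene was Ebf4, of the Ebf family of transcription factors that bind receptor promoters and enhancers, at 5300 ± 314 scaled reads in the control group and 4652 ± 265 in deletion libraries (log2 fold change -0.19 ± 0.07, adjusted p = 0.869, limma). Reep6, which aids membrane traffic of receptors, was at 499 ± 44.2 and 574 ± 64.9, and Cbx3, a heterochromatin protein, at 2754 ± 235 and 3038 ± 219. Cnbd2 was at 37.8 ± 11.6 and 24.6 ± 4.48. The median log2 fold change of the list was 0.06, with a range of -0.56 to 0.20.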

How the data were processed

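RNA from olfactory mucosa was extracted with a Qiagen RNeasy kit and made into ribosome-depleted stranded libraries, per the labels' protocols. STAR 2.6.0, DESeq2 and the build GRCm38.p6 are named in the submitters' processing notes; neither names the read counter, its strand setting or its annotation. The deposited per-library values are a signal made by dividing each gene's reads by a library size factor: 100% of non-zero values were whole multiples of the column's smallest value within 0.001, so whole reads were recovered. The authors' deposited log2 fold changes, test score, p-values and adjusted p-values were not used for any result.

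Columns were matched to samples by group and replicate number; the deletion columns carry another abbreviation than the titles and were matched as the only columns not named as wild type. Rows were matched to GENCODE M21 by Ensembl identifier (54075 matched, 907 not), which gave coordinates, 1-based, and exon lengths. Genes passing edgeR's filterByExpr (minimum count 10) were fitted on log2(scaled reads + 1) by limma 3.58.1 (R 4.3.3), with trend and robust moderation, in 1 fit of 21974 genes with Benjamini-Hochberg adjustment at 0.05; the test was checked on simulated data. Fold changes on this scale understate those of low genes. Since the values are not raw counts, edgeR 4.0.16 and DESeq2 1.42.0 on recovered reads were alternatives, beside other scalings, pseudocounts, filters, a replicate block and each library left out. Pairs of libraries in a group differed by 9.85 to 268 chi-square units per gene, above sampling noise.

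The members, gene lists and the rule for named genes (6 highest and 3 lowest per kb, 5 smallest p a direction, ends of the array, most alike pair, widest spreads, single far libraries, the 3 nearby and 4 pathway genes with the smallest p) were chosen with earlier results of these data known. The most alike pair was taken by coding sequence, not protein. Olfr807, Olfr247, the Olfr808 to Olfr816 stretch, Olfr9, Nqo1, Acsm4 and Ncam2 were chosen after values were seen. Identity is 1 minus edit distance over the longer coding sequence. RefSeq start windows (GRCm38.p6) were found for 45 members, but 44 began at the coding start, so no promoter is shown. The coding stretches of a further alike pair are not reported here. Marker lists of other cell types of the mucosa had 0 called genes.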

Additional observations from a re-analysis of the deposited data

Results flagged for a closer look

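In 5 of the 52 groups of 4 libraries examined (24 named receptors and 2 summed measures, each in both groups), a single library stood far from the other 3. The named receptors had been chosen in part for such libraries, so this count is not a rate for the array. Chance gives about 1 such case in 20 groups. Over the array, 7 of the 54 members averaging at least 50 scaled reads had such a library in either group. That count is per member, with 2 groups each, and is not comparable with the rate per group. The members beyond those named were Olfr771, at 174 scaled reads in deletion replicate 4 against 144 to 149, and Olfr788, at 888 in the same library against 653 to 691. Olfr777 was at 797 scaled reads in deletion replicate 1 against 653 to 663 in the other deletion libraries. Olfr820 was at 1032 in deletion replicate 4 against 762 to 785. Olfr784 was at 219 in control replicate 3, where the other controls were at 125 to 134, and Olfr806 at 143 in control replicate 2 against 282 to 305. Olfr819 was at 174 in deletion replicate 2 against 201 to 205. Without deletion replicate 1 the fitted log2 difference of Olfr777 was 0.19 and without control replicate 2 it was 0.16. Without control replicate 2 that of Olfr806 was 0.09.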

How the results depend on the processing

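The count of called members was 0 in the fit and in each of 19 alternatives, in both directions. The count at an unadjusted p under 0.05, added to the alternatives after the data were seen, was 4 and became 2 with edgeR, with library totals and with scaling to other odorant receptor reads, 1 with scaling to mature neuron marker reads, and 1 to 6 with 1 library left out; without the library labelled deletion replicate 3 it was 4. For that count, the share over all tested genes is given for the main fit only. The median log2 fold change of members lay between 0.05 and 0.20 over the 19 alternatives, and stood 0.05 to 0.10 above that of the other odorant receptors. Replicate numbers did not pair the samples (same-numbered libraries correlated at 0.33, 0.09, -0.17 and 0.05 in their deviations from the group means); with the replicate block the unadjusted count was 6 and 0 members were called. Scaling to mature neuron marker reads reversed Olfr811 to -0.0319 and Olfr812 to -0.0380. With 1 library left out, Olfr767 ran from -0.227 to 0.0853, Olfr789 from -0.0914 to 0.332, Olfr805 from -0.0912 to 0.328, Olfr811 from -0.0235 to 0.10, Olfr812 from -0.0365 to 0.150 and Olfr819 from -0.0703 to 0.0478; the cause was not tested. Olfr773 and Olfr779, with 7 and 15 reads over all libraries, were too low to test; the cause of their low counts was not tested.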
